A study of Homo sapiens with 9 samples.

Results

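The effect of the TRAM2-KO2 guide RNA on the poly(A)+ transcriptome of MCF10A-YAP cells was measured against a non-targeting guide RNA. MCF10A cells are human breast epithelial cells that are immortal but not transformed, and the MCF10A-YAP derivative makes an active form of YAP, the transcription coactivator at the end of the Hippo pathway, all the time. The active YAP, the guide vector and the antibiotic selection that followed transduction were shared by every group, controls included, and no cloning step is given in the sources used here, so each library can mix edited and unedited alleles of 1 cell line. Membership was set by label alone: 3 libraries of TRAM2-KO2 (A, B, C) and 3 of control (A, B, C), out of 9 in the series. The other 3 carried a second guide, TRAM2-KO1. Reads were summed for 59294 genes, and 15139 of these had enough reads to be tested.

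TRAM2 (translocating chain-associated membrane protein 2) works beside the SEC61 channel, the door by which growing polypeptides pass into the endoplasmic reticulum (ER). It is known for a role in making collagen, a family of matrix proteins that also needs ER hydroxylases, disulfide isomerases and the chaperone HSP47 on its way out of the cell. Basal breast epithelial cells lay down collagen IV and laminins as a basement membrane, hold on to it through integrins, and carry keratins, desmosomes and claudins.

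The guide is shown because it gives the place of the cut. It is printed with the 3 bases that follow it in the genome (the PAM, which Cas9 needs) in capitals.
TRAM2-KO2 guide and PAM: gtcaacagaatactcacgggAGG
The guide matched the plus strand of GRCh37 at chr6:52374309-52374328, while TRAM2 is read from the minus strand. Of its 20 bases, 3 lie inside exon 5 of 11 (chr6:52374326-52374384, 59 nt), and the others cover the splice donor and the intron beside it. The cut that Cas9 makes 3 bases from the PAM falls between 52374325 and 52374326, which is the exon border itself. Of the 1110 coding bases of TRAM2, 42.34% precede the end of this exon. The length of exon 5 leaves a remainder of 2 on division by 3, so a transcript without it would change its reading frame. Whether such a transcript was made was not tested, since the files hold 1 TRAM2 transcript.

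TRAM2 mRNA was lower by 55.1% with TRAM2-KO2. Library by library, TRAM2 (ENSG00000065308) stood at 481, 464 and 475 CPM (reads of the gene per M reads) in the 3 controls, A to C. In TRAM2-KO2 A, B and C it stood at 216, 212 and 210.5 CPM, far below the controls and with little spread. The log2 fold change was -1.16 (SE 0.0325, n = 3 and 3, edgeR adjusted p = 4.7e-08) and passed the test under each of 15 alternative settings. TRAM2-KO1 left 219, 209.9 and 203 CPM, and the difference between the guides was 0.01 on the log2 scale (adjusted p = 0.879). TRAM1, the closest relative of TRAM2 at the translocon, had 618, 634 and 624 CPM in controls and 606, 626 and 625 CPM with TRAM2-KO2 (-0.01, adjusted p = 0.914), and the groups overlapped. TRAM1L1, the third member of the family, had 0.857, 0.861 and 0.492 CPM in controls and 0.597, 0.87 and 0.62 CPM with TRAM2-KO2 (-0.09, adjusted p = 0.95).

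Among the neighbours of TRAM2, TRAM2-AS1, an antisense RNA that overlaps the first bases of TRAM2, differed by 0.01 on the log2 scale (adjusted p = 0.993). The study made strand-specific libraries, but whether counting used the strand is not given in the sources used here. If it did not, reads in this overlap could belong to either gene. Of the 10 measured genes within 500 kb of TRAM2, 1 passed the test: ENSG00000291006, known only by its identifier, at -0.35 (adjusted p = 0.0297). Its call was lost in DESeq2 (adjusted p = 0.101), with transcript length offsets (0.194) and without single libraries (up to 0.124). With up to 3 mismatches the guide had 3 other sites in the genome. The measured genes at or nearest to them did not pass the test: GLTP at 0.01 (adjusted p = 0.966), ZC3H7B at -0.05 (0.818) and OTX1, 24.8 kb away, at -0.37 (0.434).

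**Figure D1:**
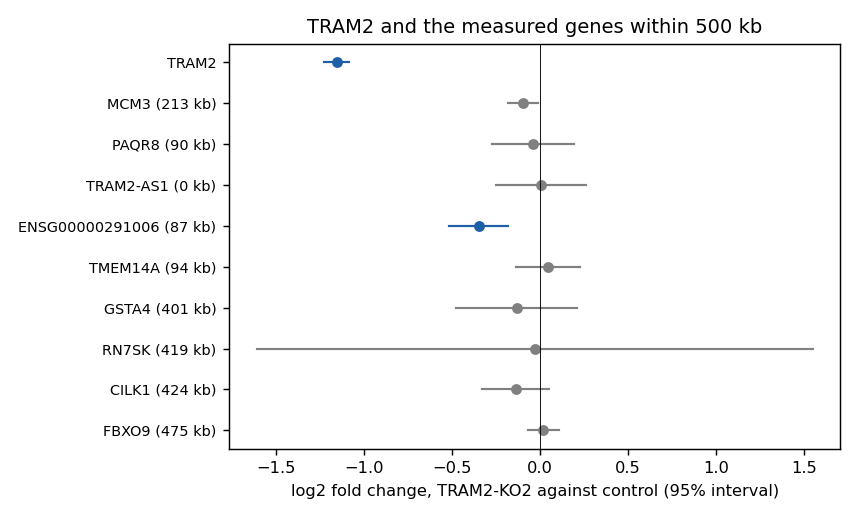
Log2 fold changes, TRAM2-KO2 against control, of TRAM2 and of 9 of the 10 measured genes within 500 kb, with the distance from TRAM2 in kb beside each name; bars are 95% intervals and blue marks an adjusted p under 0.05. TRAM2 sits at -1.16 and ENSG00000291006 at -0.35, and the other genes are grey.

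The controls held 25.1 to 25.3 M reads and the TRAM2-KO2 libraries 25.4 to 27.6 M. Ribosomal RNA took 0.442% of the reads of TRAM2-KO2 A and 0.336% to 0.361% of those of the other 5 libraries. Of 10 markers of basal mammary epithelium 9 had a mean of at least 1 TPM (transcripts per M transcripts, a level per length). KRT5 stood at 1259.8 to 1458 TPM. TP63, the transcription factor that defines basal cells, had too few reads to be tested. It had 0.176, 0.152 and 0.0457 TPM in controls and 0.0184, 0.0203 and 0.0186 TPM with TRAM2-KO2. Among luminal markers KRT8 and KRT18 were abundant and PGR was under 0.1 TPM, as were PTPRC and CD3E of leukocytes and VWF and CDH5 of endothelium, in every library. Other members of these lists were present: GATA3 of the luminal list stood at 25.7 to 29.5 TPM and CD68 of the leukocyte list at 35.5 to 44.6 TPM. KDR of the endothelial list stood at 0.422 to 0.752 TPM. The sources used here do not say whether the 3 libraries of a group came from separate cultures, so the p-values measure the spread between these libraries, which may be technical.

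Most of the transcriptome moved little. Calls required an adjusted p below 0.05 together with a log2 fold change beyond 0.5 in either direction. These were met by 98 genes (0.647% of those tested), of which 52 were up (0.343%) and 46 down (0.304%). At any size of change 262 genes rose (1.73%) and 377 fell (2.49%), and the median over all genes was -0.0032. Of the called genes 12 rose and 11 fell by more than 1 on the log2 scale. Sorted by read depth, among genes of 500 CPM and more 13% fell and 4.58% rose, while among genes under 5 CPM 0.423% fell and 0.557% rose. The median SE was 0.0324 in the first class and 0.267 in the second. The counts of each gene list below are to be set beside the shares of all genes, 1.73% risen and 2.49% fallen. Those shares were larger at higher read depth. Over the 15 alternatives 41 of the 98 called genes (25 up, 16 down) passed the adjusted p wherever one was given. The genes described singly as risen or fallen below are of that kind unless a loss is stated.

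**Figure D2:**
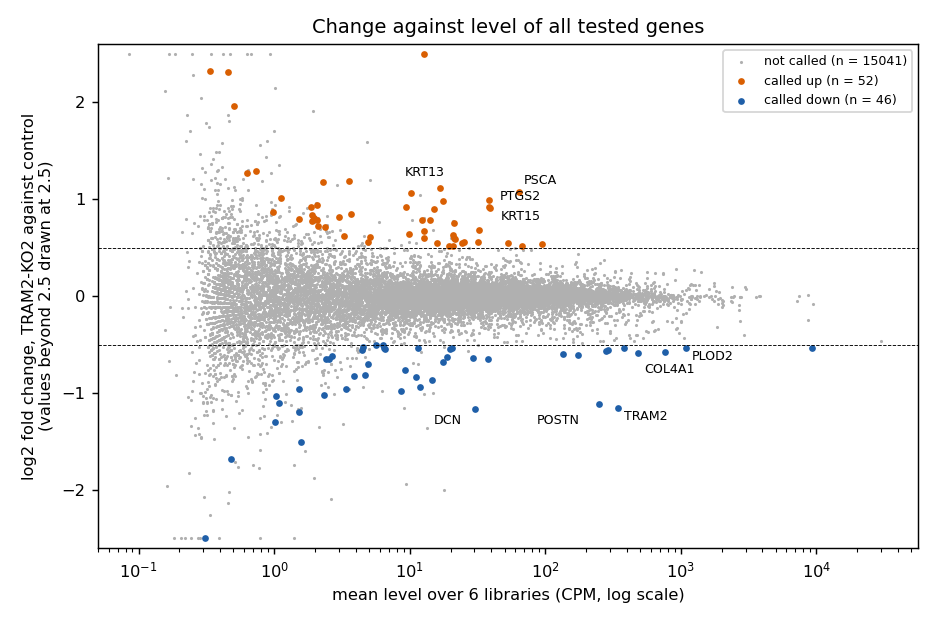
Log2 fold change of TRAM2-KO2 against control for the 15139 tested genes against their mean level over the 6 libraries in CPM, on a log axis; dashed lines mark 0.5 in either direction, and values beyond 2.5 are drawn at 2.5. Called genes are 52 up (orange) and 46 down (blue); above 500 CPM the 3 called genes are down.

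Among called genes over 10 CPM in controls, the largest falls beside TRAM2 were in 2 matrix genes. DCN encodes decorin, a small proteoglycan that binds collagen fibrils (ENSG00000011465, GRCh37 chromosome 12, 91534261 to 91576994). It had 40.2, 41.9 and 42.7 CPM in controls and 20.4, 17.8 and 17.4 CPM with TRAM2-KO2 (-1.17, SE 0.0645, adjusted p = 6.66e-06). POSTN encodes periostin, a secreted protein that links matrix fibres to cells (ENSG00000133110, GRCh37 chromosome 13, 38136720 to 38172981), and had 340.0, 341 and 341 CPM in controls and 153, 155 and 163 CPM with TRAM2-KO2 (-1.12, SE 0.0333, adjusted p = 4.7e-08). The groups were far apart for both. Both genes were lower with TRAM2-KO2 than with TRAM2-KO1, by 0.66 and 0.43 on the log2 scale (adjusted p = 0.000724 and 0.000229).

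Further down the order stood growth factors, receptors and surface enzymes. IGF2, an insulin-like growth factor, fell from 21.5 ± 1.48 to 13.4 ± 0.728 CPM (mean ± SD, n = 3, -0.68, adjusted p = 0.000712). ROS1, a receptor tyrosine kinase, fell from 45.7 ± 3 to 29.2 ± 1.17 CPM (-0.64, adjusted p = 0.000186). EDIL3, a secreted ligand of integrins, fell from 35.4 ± 0.589 to 22.8 ± 0.315 CPM (-0.63, adjusted p = 2.64e-05). ALPP, the placental alkaline phosphatase, fell from 211 ± 2.82 to 138 ± 5.02 CPM (-0.61, adjusted p = 7.97e-05), and its reads may be shared with the near-identical copy ALPG, which had too few reads to be tested. Some large falls rested on few reads. COL5A3, a collagen V chain, had 2.57, 2.46 and 1.97 CPM in controls and 0.635, 0.949 and 0.875 CPM with TRAM2-KO2 (-1.50, SE 0.272, adjusted p = 0.0109); its adjusted p was 0.0614 without control A, 0.0574 without control B, 0.0574 without TRAM2-KO2 A and 0.159 with transcript length offsets. C1S, a complement protease, had 1.96, 2.17 and 2.21 CPM in controls and 0.672, 1.15 and 0.948 CPM with TRAM2-KO2 (-1.20, SE 0.218, adjusted p = 0.0117), with an adjusted p of 0.0562 without control B, 0.0557 without control C and 0.348 with transcript length offsets.

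Among called genes over 5 CPM in controls, the largest rises were those of KRT13, PSCA and PADI2. KRT13, a keratin of stratified mucosa (ENSG00000171401, GRCh37 chromosome 17, 39657233 to 39661957), had 10.7, 10.7 and 10.2 CPM in controls and 26.2, 20.6 and 21.7 CPM with TRAM2-KO2 (1.12, SE 0.102, adjusted p = 0.000151). PSCA, a cell surface protein of the LY6 family (ENSG00000167653), had 41.8, 41.6 and 39.2 CPM in controls and 88.9, 85.3 and 83.8 CPM with TRAM2-KO2 (1.07, SE 0.0636, adjusted p = 8.83e-06). PADI2, an enzyme that turns arginines of proteins into citrulline, had 6.61, 6.6 and 6.68 CPM in controls and 13, 13.8 and 14.7 CPM with TRAM2-KO2 (1.06, SE 0.069, adjusted p = 1.97e-05). In each of these genes the lowest TRAM2-KO2 library lay well above the highest control. PTGS2, the inducible cyclooxygenase of prostaglandin synthesis, had 26.4, 27.8 and 23.1 CPM in controls and 50.6, 50.5 and 52.9 CPM with TRAM2-KO2 (0.99, SE 0.0702, adjusted p = 2.7e-05). FXYD3, a small regulator of the sodium pump, rose from 26.7 ± 1.73 to 50.6 ± 2.96 CPM (0.92, adjusted p = 3.33e-05). PKIB, an inhibitor of protein kinase A, rose from 1.4 ± 0.0996 to 2.7 ± 0.196 CPM (0.94, adjusted p = 0.00416). Smaller rises that held in every alternative were those of ALDH1A3, an enzyme of retinoic acid synthesis, from 55.6 ± 1.89 to 79.7 ± 1.13 CPM (0.52, adjusted p = 2.7e-05), and of RAB25, a small GTPase of epithelial membrane recycling, from 10.2 ± 0.753 to 15.4 ± 1.15 CPM (0.60, adjusted p = 0.00171). MAL2 and MPZL2, an apical sorting protein and an epithelial adhesion protein, rose by 0.54 and 0.52 on the log2 scale.

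**Figure D3:**
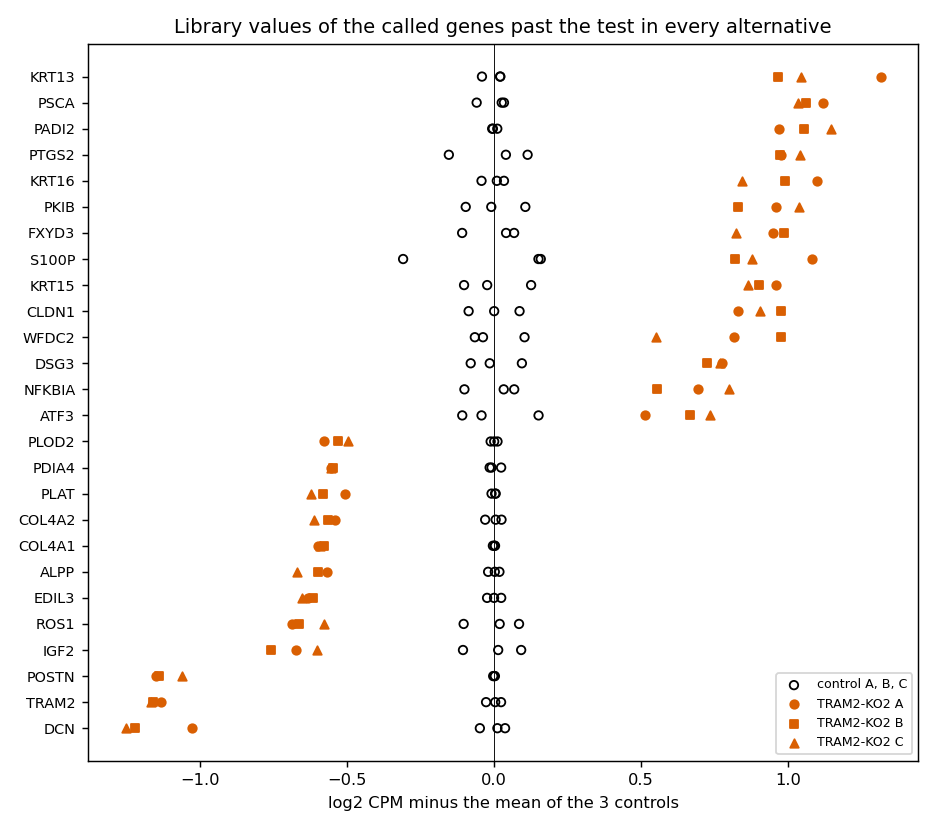
Library values of 26 called genes that passed the test in every alternative, as log2 CPM minus the mean of the 3 controls; open circles are control A, B and C, and orange circles, squares and triangles are TRAM2-KO2 A, B and C. MAGT1 and genes known only by an identifier are left out; in none of the genes drawn do the groups overlap.

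At the translocon TRAM2 stood alone. It was the 1 gene of 9 in the list of SEC61 channel and TRAM genes to pass the test, and the median of the list was 0.01. SEC61A1, which forms the pore, had 507, 507 and 493 CPM in controls and 509, 509.6 and 488 CPM with TRAM2-KO2 (0.00, adjusted p = 0.996). None of 8 genes of the signal recognition particle and its receptor, which bring ribosomes to the channel, and none of 5 signal peptidase genes passed. Of 4 genes of the TRAP complex, a partner of SEC61, SSR2 fell by 0.12 on the log2 scale (adjusted p = 0.0449), a call lost without any 1 of the 6 libraries (adjusted p 0.0899 to 0.168). Of 15 genes for membrane insertion by the EMC and GET routes, EMC1, an EMC subunit with a large lumenal part, fell from 158, 156 and 161 CPM to 119, 123 and 122 CPM (-0.38, SE 0.0281, adjusted p = 3.12e-05).

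The oligosaccharyltransferase puts sugar chains on proteins as they pass the translocon. Of its 11 measured genes 3 fell and 2 rose. The catalytic subunits STT3A and STT3B fell by 0.15 and 0.14 on the log2 scale, and both calls were lost without single libraries (adjusted p up to 0.122 and 0.0946). TUSC3, an oxidoreductase subunit, rose from 159, 162 and 159 CPM to 182, 186 and 185 CPM (0.21, adjusted p = 0.00747). MAGT1, a close relative of TUSC3, had 1, 1 and 3 reads in the controls, 173, 865 and 975 reads with TRAM2-KO2 (in the order A, B, C), and 692, 657 and 585 reads with TRAM2-KO1. In TRAM2-KO2 these reads lay on 1 of the 4 MAGT1 transcripts in the files (4047 nt), which had 0 reads in every control. No fold change is given, because reads that Salmon put on a transcript with no gene in the annotation were not counted for any gene, and their part in the values of MAGT1 was not tested.

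Inside the ER, genes of the folding machinery fell in part, and 12 of 26 did not pass. Of 26 measured lumenal chaperones and disulfide isomerases 14 fell and 0 rose, and 7 of those that fell did so in every alternative. Over all genes tested 2.49% fell and 1.73% rose. The median of the list was -0.18, with library medians of -0.18, -0.18 and -0.19 for the TRAM2-KO2 libraries relative to the control mean. PDIA4, a disulfide isomerase, had 339, 348 and 341 CPM in controls and 233, 234 and 233 CPM with TRAM2-KO2 (-0.55, SE 0.0269, adjusted p = 3.66e-06). HYOU1, a large chaperone of the HSP70 kind, fell from 206, 205 and 202 CPM to 159.5, 156 and 157 CPM (-0.38, adjusted p = 2.55e-05). HSP90B1, the HSP90 of the ER, fell from 1034, 1046 and 1015 CPM to 815, 803 and 827 CPM (-0.34, adjusted p = 0.000105). These groups of values did not overlap in any of the 3 genes. TXNDC5, another disulfide isomerase, fell by 0.29 on the log2 scale, and HSPA5 (BiP, the main ER chaperone), CALR (calreticulin) and PDIA3, which pass every alternative as well, fell by 0.27, 0.27 and 0.26.

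The unfolded protein response, which senses load in the ER, had 1 gene risen and 1 fallen out of 14, with a median of -0.01. PPP1R15A, a phosphatase subunit that ends the response, was at 0.28 (adjusted p = 0.0173) and CREB3L2, a membrane-bound transcription factor, at -0.16 (0.0185), and both were lost without single libraries (adjusted p up to 0.0909 and 0.107). XBP1 and DDIT3, common readouts of ER stress, were at 0.13 (adjusted p = 0.725) and 0.08 (0.912). Of 14 genes of ER-associated degradation 3 fell and 0 rose. They were EDEM3, OS9 and SEL1L, which pick misfolded glycoproteins for export, at -0.31, -0.24 and -0.30, and each was lost with transcript length offsets (adjusted p = 0.359, 0.244 and 0.325). None of 23 genes of COPII transport from the ER to the Golgi passed.

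The basement membrane rests on a network of collagen IV. Of 10 measured genes of the collagen IV network 7 fell, beside 2.49% of all genes, and 0 rose. Of the 7, 2 fell in every alternative. The median of the list was -0.38, with library medians of -0.43, -0.29 and -0.45. COL4A1, a chain of the main collagen IV trimer (ENSG00000187498, GRCh37 chromosome 13, 110801310 to 110959504), had 586, 585 and 583 CPM in controls and 385, 392 and 388 CPM with TRAM2-KO2 (-0.59, SE 0.0311, adjusted p = 5.19e-06). COL4A2, its partner chain and neighbour on the same chromosome, had 913, 926 and 891 CPM in controls and 624, 615 and 595 CPM with TRAM2-KO2 (-0.57, SE 0.0756, adjusted p = 0.0017). The 2 chains lost 33.6% and 32.8% of their mRNA. PXDN, a peroxidase that crosslinks collagen IV, fell from 453 ± 5.16 to 312 ± 7.94 CPM (-0.54, adjusted p = 0.000107), and NID2, a linker between collagen IV and laminin, from 24.3 ± 1.07 to 16.7 ± 0.441 CPM (-0.54, adjusted p = 0.0018). Both were lost with transcript length offsets (adjusted p = 0.0802 and 0.654).

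Collagen needs enzymes that modify its chains. Of 16 measured collagen hydroxylases, glycosyltransferases and HSP47, 7 fell and 0 rose (median -0.24), and PLOD1, PLOD2, P3H1 and P4HA2 passed every alternative. PLOD2, which hydroxylates lysines at the ends of collagen chains, had 1298, 1288 and 1277 CPM in controls and 862, 890.5 and 912 CPM with TRAM2-KO2 (-0.54, SE 0.0302, adjusted p = 7.01e-06). PLOD1, a lysyl hydroxylase of the helix, fell from 194, 199 and 192 CPM to 149, 142 and 148 CPM (-0.41, adjusted p = 0.000134). P4HA2, a prolyl 4-hydroxylase subunit, fell from 167 ± 2.83 to 138 ± 3.76 CPM (-0.27, adjusted p = 0.000831), and P3H1, a prolyl 3-hydroxylase, by 0.48 on the log2 scale. Outside the cell, lysyl oxidases crosslink collagen and proteinases trim it. Of 9 such genes LOX, LOXL2 and BMP1 fell, by 0.40, 0.46 and 0.44. LOX, the founding lysyl oxidase, had 472, 471 and 463 CPM in controls and 352, 357 and 353 CPM with TRAM2-KO2, with no overlap.

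The list of 20 measured matrix glycoproteins and proteoglycans, which holds DCN and POSTN, had 13 genes fallen, beside 2.49% of all genes, and 1 risen. Of the 13, 6 fell in every alternative. The median of the list was -0.36, with library medians of -0.34, -0.33 and -0.34. FN1, which encodes fibronectin, had 33673, 32842 and 37409 CPM in controls and 23552, 25817 and 25939 CPM with TRAM2-KO2 (-0.46, SE 0.062, adjusted p = 0.0018), and control C was the highest library. TGFBI, a secreted protein that binds collagen and integrins, fell from 2048 ± 32.8 to 1639 ± 21.1 CPM (-0.32, adjusted p = 3.12e-05). EFEMP1, a protein of elastic fibres, fell from 627 ± 8.5 to 488 ± 5.53 CPM (-0.36, adjusted p = 4.33e-05). FSTL1, a secreted glycoprotein, fell by 0.26 on the log2 scale and was lost with transcript length offsets (adjusted p = 0.0502). The gene that rose, SMOC1, a calcium-binding matrix protein, was at 0.423 ± 0.0615 and 1.04 ± 0.164 CPM, and its call was lost without any 1 of the 6 libraries (adjusted p 0.0889 to 0.146).

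Laminins split. Of 10 chains 3 fell and 1 rose. LAMB1 and LAMC1, chains of laminins of most basement membranes, fell by 0.30 and 0.43 on the log2 scale. LAMA4 was at 0.47 (adjusted p = 0.0473) at 3.34 ± 0.0388 and 4.62 ± 0.371 CPM; with transcript length offsets its direction turned (-0.01), and without any 1 of the 6 libraries its call was lost (adjusted p 0.0632 to 0.155). Other collagen chains had 3 of 14 fallen and 1 risen, 0 and 0 of them in every alternative. COL8A1, a short-chain collagen, fell from 485 ± 2.67 to 358 ± 3.48 CPM (-0.44, adjusted p = 5.19e-06), and was lost with transcript length offsets (adjusted p = 0.419).

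Integrins are the main receptors for the matrix. Of 12 integrin chains outside the hemidesmosome 8 fell, beside 2.49% of all genes, and 0 rose (median -0.32, library medians -0.33, -0.29 and -0.33). ITGB1, the beta chain of most collagen, laminin and fibronectin receptors, had 2986, 2954 and 2926 CPM in controls and 2391, 2494 and 2546 CPM with TRAM2-KO2 (-0.25, adjusted p = 0.000706). ITGA5, its partner in the fibronectin receptor, had 183, 185 and 185 CPM in controls and 141, 135 and 131 CPM with TRAM2-KO2 (-0.45, adjusted p = 3.7e-05). ITGAV, a chain of vitronectin receptors, fell by 0.38 on the log2 scale. In the hemidesmosome, which ties keratins to laminin, 1 of 6 genes rose and 1 fell. COL17A1, its transmembrane collagen, rose from 215, 214 and 209 CPM to 248, 253 and 243 CPM (0.22, adjusted p = 0.00316) and was lost with transcript length offsets (adjusted p = 0.312). ITGA6, its integrin alpha chain, was at -0.16 (adjusted p = 0.0217) and was lost without single libraries (up to 0.11).

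Hyaluronan and matrix uptake genes had 4 of 8 fallen and 0 risen, and 0 of the 4 fell in every alternative. CEMIP, which degrades hyaluronan, went from 3.14 ± 0.266 to 1.54 ± 0.313 CPM (-1.03, adjusted p = 0.00684) and MRC2, a receptor for collagen uptake, from 5.97 ± 0.847 to 3.39 ± 0.251 CPM (-0.82, adjusted p = 0.00431). Both were lost with transcript length offsets (adjusted p = 0.0502 and 0.47). Of 7 syndecans and glypicans, proteoglycans of the cell surface, 3 fell and 0 rose, 0 of them in every alternative. SDC2 was at -0.42 (adjusted p = 0.000234, and 0.217 with transcript length offsets).

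Fibroblast markers were read beside these matrix groups. Of 9 such markers COL3A1, PDGFRA and THY1 were under 0.1 TPM in all 6 libraries and COL1A2 was at 0.0 to 0.207 TPM. The summed level of the list was 156 to 178 TPM in controls and 114 to 119.6 TPM with TRAM2-KO2, nearly all of it from FAP and DCN. FAP, a surface protease, was at -0.20 (adjusted p = 0.0433), a call lost without any 1 of the 6 libraries (adjusted p 0.106 to 0.16). The part of other cell types in these falls was not tested, and in bulk RNA fewer cells of a type and less RNA per cell cannot be told apart.

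Proteases of the matrix and their inhibitors moved in both directions. PLAT, the tissue plasminogen activator, had 335, 335 and 332 CPM in controls and 235, 223 and 217 CPM with TRAM2-KO2 (-0.57, SE 0.0348, adjusted p = 1.07e-05), a loss of 32.7% of its mRNA. Of 12 measured genes of the plasminogen system and the serpins 4 fell and 1 rose, the latter SERPINB5 (maspin), from 296, 297 and 299 CPM to 352, 360.5 and 354 CPM (0.26, adjusted p = 0.00248). Of 13 matrix metalloproteinases, related proteases and inhibitors 2 fell and 1 rose. MMP14, a membrane collagenase, fell from 310.5 ± 4.47 to 225 ± 11 CPM (-0.46, adjusted p = 0.000321), and TIMP3, an inhibitor held in the matrix, rose from 47.6 ± 2.08 to 60.7 ± 1.6 CPM (0.35, adjusted p = 0.000945). Complement had 3 of 10 genes fallen and 1 risen. Beside C1S, CFB, a protease of the alternative pathway, was at -0.39, lost without single libraries (adjusted p up to 0.0756). The gene that rose, CD59, which protects cells from complement, was at 0.11 (adjusted p = 0.0292) and was lost without any 1 of the 6 libraries (adjusted p 0.0588 to 0.104).

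**Figure D4:**
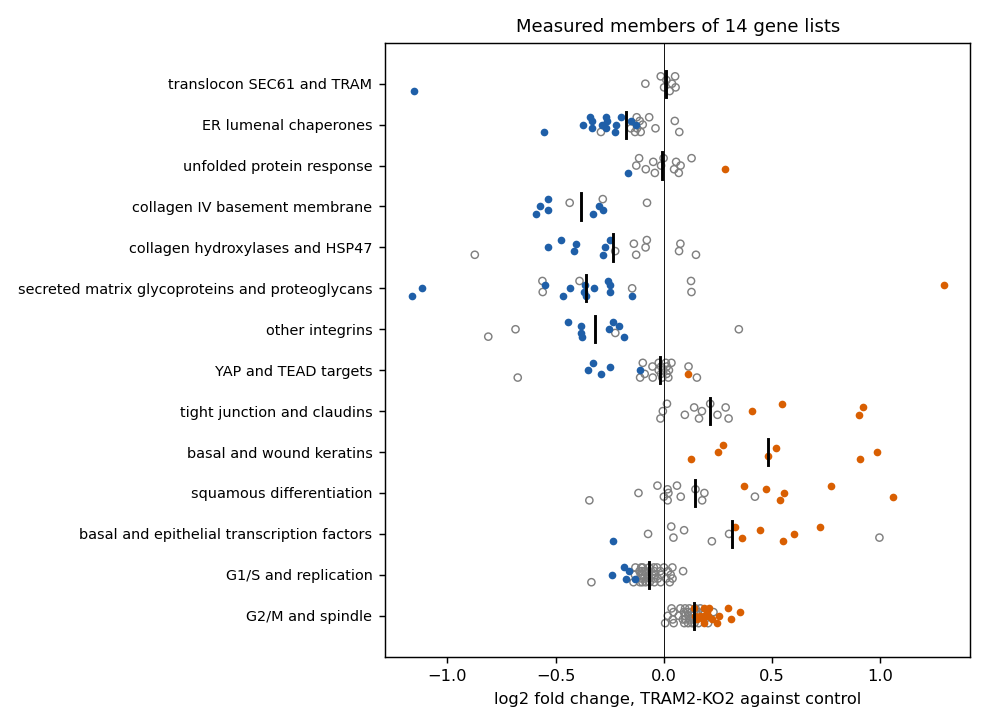
Log2 fold changes of the measured members of 14 gene lists; orange and blue points have an adjusted p under 0.05 above and below 0, open points do not pass, and black bars are list medians. Medians lie at -0.38 for the collagen IV network, -0.18 for ER chaperones, 0.48 for basal and wound keratins and 0.14 for G2/M genes.

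The measured keratins of basal and wound epithelium rose, 7 of 7, against 1.73% of all genes. This list, like the others, was chosen with earlier results of these data known, so the 2 shares side by side are no test. The median of the 7 was 0.48, with library medians of 0.53, 0.50 and 0.36, and 4 passed every alternative. KRT15, a basal keratin (ENSG00000171346), had 25.3, 29.6 and 26.7 CPM in controls and 52.8, 50.7 and 49.4 CPM with TRAM2-KO2 (0.90, SE 0.0623, adjusted p = 2.55e-05). KRT16, which appears in wounded epidermis (ENSG00000186832), had 11.4, 11.8 and 12 CPM in controls and 25.2, 23.4 and 21.2 CPM with TRAM2-KO2 (0.98, SE 0.0896, adjusted p = 0.000149). KRT6A, also a wound keratin, rose from 1292 ± 20.9 to 1535 ± 60.2 CPM (0.25, adjusted p = 0.00102) and KRT6B from 15.9 ± 0.566 to 22.7 ± 2.16 CPM (0.52, adjusted p = 0.0021). KRT5, the main basal type II keratin, was at 0.13 (adjusted p = 0.0269), lost without each library but TRAM2-KO2 C (adjusted p 0.0713 to 0.126). KRT14, the partner of KRT5, was at 0.48 (adjusted p = 0.00902), lost without control A (0.0542). KRT17 was at 0.27, lost with transcript length offsets (adjusted p = 0.193). Reads of such similar genes, as of KRT6A, KRT6B and KRT6C or of KRT14, KRT16 and KRT17, may be split uncertainly between them. Of 9 keratins of simple and mucosal epithelia 3 rose and 0 fell. KRT80 rose from 80.7 ± 2.15 to 102 ± 4.15 CPM (0.34, adjusted p = 0.000898) and KRT4 from 22.6 ± 1.55 to 31.9 ± 0.441 CPM (0.50, adjusted p = 0.00676), the latter lost with transcript length offsets (adjusted p = 0.0654).

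Junction genes came from 3 lists. CLDN1, a claudin of the tight junction, had 9.96, 10.6 and 11.2 CPM in controls and 18.8, 20.8 and 19.8 CPM with TRAM2-KO2 (0.90, SE 0.072, adjusted p = 5.5e-05). DSG3, a desmosomal cadherin of basal keratinocytes, had 14.9, 15.5 and 16.8 CPM in controls and 26.8, 25.9 and 26.7 CPM with TRAM2-KO2 (0.75, SE 0.0554, adjusted p = 3.12e-05). The groups did not overlap in either gene. Of 15 tight junction genes 4 rose and 0 fell (median 0.21), and of 9 desmosome genes 5 rose and 1 fell (median 0.20). In every alternative 1 of the 4 rises (CLDN1) and 2 of the 5 (DSG3 and PERP) held. CLDN4 was at 0.54, lost without control A (adjusted p = 0.055), and PERP, a desmosomal membrane protein, rose from 201 ± 2.71 to 244 ± 1.4 CPM (0.28, adjusted p = 0.000452). DSC3, the desmosome gene that fell, was at -0.20 and was lost without single libraries (adjusted p up to 0.0971). The adherens junction had 0 of 13 genes risen and 2 fallen. CDH2, the N-cadherin of mesenchymal cells, was at -0.28 and CDH13, a cadherin with a lipid anchor, at -0.19, and both were lost without single libraries (adjusted p up to 0.0647 and 0.0567). CDH1, the E-cadherin of epithelia, had 151, 164 and 156 CPM in controls and 163, 174 and 183 CPM with TRAM2-KO2 (0.14, adjusted p = 0.283).

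Of 19 measured genes of squamous differentiation 6 rose and 0 fell (median 0.15), and 3 rose in every alternative. SLPI, a secreted protease inhibitor, had 75.9, 78.7 and 78.4 CPM in controls and 113, 114 and 111 CPM with TRAM2-KO2 (0.54, SE 0.0356, adjusted p = 2.16e-05). SCEL (sciellin), a precursor of the cornified envelope, had 54.6, 57.2 and 58.9 CPM in controls and 78.4, 77.6 and 80.8 CPM with TRAM2-KO2 (0.47, adjusted p = 0.000183). The other 19 of 38 genes on the list, which include the late genes LOR, SPRR3 and TGM3, had too few reads to be tested. In the S100 family 4 of 11 genes rose and 0 fell. S100P had 5.18, 7.13 and 7.17 CPM in controls and 13.6, 11.3 and 11.8 CPM with TRAM2-KO2 (0.92, adjusted p = 0.00325), and S100A14 rose from 25.6 ± 0.869 to 37.7 ± 3.06 CPM (0.56, adjusted p = 0.000667). ABCA12, a lipid transporter of keratinocytes, rose from 16.3 ± 1.32 to 25.2 ± 1.97 CPM (0.63, adjusted p = 0.00102).

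Transcription factors of epithelial identity had 6 of 14 genes risen and 1 fallen (median 0.32, library medians 0.34, 0.32 and 0.35). TRIM29, a basal cell protein, rose from 16.9 ± 0.738 to 25.6 ± 1.66 CPM (0.60, adjusted p = 0.00145), and SOX9, a factor of progenitor cells, from 45.6 ± 2.1 to 58.5 ± 0.652 CPM (0.36, adjusted p = 0.00278). GRHL2, which maintains epithelial junctions, rose from 65.5 ± 3.22 to 82.3 ± 2.28 CPM (0.33, adjusted p = 0.00243), and its direction turned with transcript length offsets (-0.04, adjusted p = 0.983). Of 13 genes of the mesenchymal state 5 fell and 1 rose (median -0.22). VIM, the intermediate filament vimentin, had 526, 539 and 521 CPM in controls and 409, 398 and 394 CPM with TRAM2-KO2 (-0.40, SE 0.0282, adjusted p = 2.7e-05). SNAI2, a repressor of epithelial genes, had 179, 172 and 171 CPM in controls and 141, 149 and 143 CPM with TRAM2-KO2 (-0.27, adjusted p = 0.00141). The gene of this list that rose, ESRP1, is an epithelial splicing factor; it went from 49.3 ± 1.52 to 69.7 ± 1.37 CPM (0.50, adjusted p = 0.000191) and was lost with transcript length offsets (adjusted p = 0.236). Of 17 contractile and actin-binding genes 2 fell, among them MYL9, a myosin light chain, from 71.2 ± 3.8 to 54.1 ± 2.04 CPM (-0.40, adjusted p = 0.00557).

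Signals between epithelial cells moved in a few genes. In the prostaglandin pathway 3 of 10 genes rose and 0 fell. Beside PTGS2 these were PTGES, which makes prostaglandin E2, from 187, 185 and 184 CPM to 228, 226 and 214 CPM (0.26, adjusted p = 0.000908), and its receptor PTGER4 at 0.47, lost with transcript length offsets (adjusted p = 0.529). Of 11 EGF family ligands, receptors and regulators 3 rose and 0 fell. ERRFI1, a feedback inhibitor of the EGF receptor, had 147, 148 and 145 CPM in controls and 195, 199 and 202 CPM with TRAM2-KO2 (0.44, adjusted p = 2.78e-05). EREG, the ligand epiregulin, went from 2.65 ± 0.212 to 4.77 ± 0.416 CPM (0.85, adjusted p = 0.00663), lost with transcript length offsets (adjusted p = 0.136). Of 16 genes of NF-kB and its feedback 2 rose and 1 fell. NFKBIA, an inhibitor that NF-kB itself induces, had 25.5, 23.3 and 26.2 CPM in controls and 40.4, 36.7 and 43.5 CPM with TRAM2-KO2 (0.68, SE 0.069, adjusted p = 0.000299). TNFAIP3 and ICAM1, 2 further NF-kB targets, were at 0.37 and -0.49, and both were lost without single libraries (adjusted p up to 0.115 and 0.118).

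Of 30 immediate early genes 6 rose and 2 fell. ATF3, an early stress factor, rose from 7.67 ± 0.731 to 11.9 ± 0.931 CPM (0.64, adjusted p = 0.00267). The MAP kinase phosphatases split: DUSP4 rose from 298 ± 8.2 to 353 ± 9.63 CPM (0.25, adjusted p = 0.00225) and DUSP1 fell from 235 ± 4.56 to 192 ± 2.81 CPM (-0.29, adjusted p = 0.00101). Of 13 measured cytokines and chemokines 3 rose and 1 fell, 0 and 0 of them in every alternative. IL6 had 3, 3 and 2 reads in controls and 18, 15 and 12 reads with TRAM2-KO2, with no overlap. Its adjusted p was 0.026, and the call was lost without any 1 of the 6 libraries (adjusted p 0.0515 to 0.115). CSF1, the growth factor of macrophages, was at -0.54 (adjusted p = 0.00352, and 0.695 with transcript length offsets). Of 28 interferon-stimulated genes 0 rose and 1 fell.

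YAP1 did not pass the test, and most of its classic targets did not either, with more falls than rises among those that did. YAP1 had 340.4, 337 and 337 CPM in controls and 339, 358 and 354 CPM with TRAM2-KO2 (0.05, adjusted p = 0.47), a sum in which the introduced and the native gene cannot be told apart. Of 26 YAP and TEAD targets 1 rose and 5 fell (median -0.02, library medians -0.04, -0.00 and -0.05). Of these, 2 falls and 0 rises held in every alternative. CCN2 and ANKRD1, targets often used as a readout, were at 0.11 (adjusted p = 0.106) and -0.11 (0.158). CRIM1, a surface protein that binds growth factors, fell from 723 ± 11.1 to 566 ± 22.7 CPM (-0.35, adjusted p = 0.000145), and NT5E (CD73), an ectonucleotidase, from 1038 ± 6.77 to 826 ± 16.9 CPM (-0.33, adjusted p = 0.000306). Of 19 genes of the Hippo core and the TEAD cofactors VGLL1, a cofactor that binds TEAD, was the 1 to pass, with 48.3, 47.8 and 47.4 CPM in controls and 62.8, 59.1 and 62.5 CPM with TRAM2-KO2 (0.36, adjusted p = 0.000452). KIF18A, a mitotic kinesin and one of the study's enhancer target genes, was at 0.22 (adjusted p = 0.0421) and was lost without any 1 of the 6 libraries (adjusted p 0.0565 to 0.166). The others of that list, CCND1, MYC, SLC39A1 and TMEM158, were at 0.06, -0.04, 0.07 and 0.21 and did not pass (adjusted p = 0.385, 0.66, 0.284 and 0.436). The study chose these genes itself, in cells of this kind.

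Among 32 genes of TGF-beta and activin signalling 2 rose and 4 fell. TGFBR2, the receptor that binds the ligand, rose from 1137 ± 2.5 to 1368 ± 14.3 CPM (0.27, adjusted p = 0.000142), and LTBP2, of the latent TGF-beta binding proteins of the matrix, fell from 270.4 ± 9.17 to 208 ± 4.46 CPM (-0.38, adjusted p = 0.00196). Of 11 IGF binding proteins and receptors 3 fell, and IGFBP4 did so in every alternative, from 77.8 ± 3.76 to 56.5 ± 1.4 CPM (-0.46, adjusted p = 0.00116). Guidance genes of the SLIT, ROBO and semaphorin families had 4 of 18 fallen and 0 risen. NRP1, a coreceptor of semaphorins and VEGF, fell from 209, 212 and 219 CPM to 156, 165 and 166 CPM (-0.39, adjusted p = 9.44e-05). Of 22 receptor tyrosine kinases ROS1 was the 1 to pass, none of 12 Notch pathway genes passed, and of 20 WNT pathway genes 1 rose and 4 fell, 0 and 0 of them in every alternative.

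Genes of mitosis and of replication were read as separate lists. Of 50 measured genes of G2/M and the spindle 17 rose, beside 1.73% of all genes, and 0 fell. The median of the list was 0.14, with library medians of 0.13, 0.14 and 0.16. The 3 that passed every alternative were CCNB1, AURKA and TPX2. CCNB1, cyclin B1, had 146, 148 and 147 CPM in controls and 190.0, 188 and 184 CPM with TRAM2-KO2 (0.35, SE 0.0383, adjusted p = 0.000509). AURKA, a spindle kinase, had 153, 154 and 156 CPM in controls and 188, 188 and 193 CPM with TRAM2-KO2 (0.30, adjusted p = 0.000642). The groups did not overlap in either. TPX2, the activator of AURKA, rose from 392 ± 4.55 to 449.8 ± 11.4 CPM (0.20, adjusted p = 0.00367). Replication genes had 5 of 45 fallen and 0 risen (median -0.07), 0 of them in every alternative. The p53 pathway, which answers breaks in DNA, had 0 of 26 targets risen and 1 fallen, and CDKN1A was at -0.11 (adjusted p = 0.111).

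Metabolic and housekeeping programs gave few calls. None of 51 cytosolic ribosomal protein genes, 36 nuclear and 13 mitochondrial genes of oxidative phosphorylation, 22 cholesterol and 12 fatty acid synthesis genes passed. Their medians were -0.02, 0.01, 0.0036, 0.03 and 0.03. The mitochondrial genes differed between libraries of 1 group, with library medians of 0.25, -0.21 and -0.01 for the TRAM2-KO2 libraries. Of 29 glycolysis and hypoxia genes 3 fell and 0 rose, 0 of them in every alternative. Of 23 genes of the integrated stress response and amino acid supply 3 fell and 1 rose. STC2, a secreted glycoprotein of that response, fell from 191 ± 5.62 to 149.9 ± 2.54 CPM (-0.35, adjusted p = 0.000667).

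Level and transcript length bear on how many reads a gene has, and so on whether it can be called; the differences below were not tested. The median control level was 2.34 TPM for genes called up and 4.88 TPM for genes called down, beside 11.7 TPM for the tested genes. The longest transcript had a median of 5476 nt for genes called down, 3382.5 nt for genes called up and 3608 nt for the tested genes, and the median GC content was 49.7%, 51.6% and 47.6% in that order. Across the 15139 genes, which share libraries and are not independent, the Spearman correlation of the fold change with GC content was -0.0072. Promoters in the RefSeq table were matched for 37 of the 52 genes called up and 32 of the 46 called down, too few for a comparison of motifs, so that check is void.

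Set directly against the TRAM2-KO1 libraries, the TRAM2-KO2 libraries stood apart in 72 called genes (0.476%), 63 higher and 9 lower. At any size 213 genes were higher (1.41%) and 131 lower (0.865%) with TRAM2-KO2. The count of called genes was 315 without TRAM2-KO1 A and 41 without TRAM2-KO2 A or B. All 7 basal and wound keratins and 7 of 19 squamous differentiation genes were higher with TRAM2-KO2 by adjusted p. Of the keratins KRT6B, KRT15 and KRT16 passed all 14 alternatives, while KRT5 and KRT6A were lost with transcript length offsets (adjusted p = 0.0728 and 0.116) and KRT14 and KRT17 in 5 and 6 alternatives, among them leaving out single libraries (highest adjusted p 0.106 and 0.402). Of the squamous genes IVL and PI3 were lost in 9 and 4 alternatives (highest adjusted p 0.432 and 0.106), and the other 5 passed wherever a value was given. The libraries also differed in how expression moved with GC content: the Spearman correlation across genes was 0.39, 0.17 and -0.09 for the TRAM2-KO2 libraries and 0.18, -0.53 and -0.36 for those of TRAM2-KO1 (deviation from the mean of all 9 against GC). With that trend removed 63 genes were called. KRT15 had 30, 28 and 27.1 CPM with TRAM2-KO1, against 52.8, 50.7 and 49.4 CPM with TRAM2-KO2 (difference 0.84, SE 0.062, adjusted p = 0.000229). KRT16 had 13.3, 14.2 and 11.3 CPM with TRAM2-KO1 (difference 0.85, SE 0.0887, adjusted p = 0.00107). DSG3, PADI2 and FXYD3 were higher by 0.60, 0.69 and 0.69 on the log2 scale, and these differences, like those of both keratins, passed all 14 alternatives of this contrast.

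ST14, the membrane protease matriptase, had 18.6, 19.3 and 19.7 CPM in controls and 22, 19.5 and 19.5 CPM with TRAM2-KO2 (0.08, adjusted p = 0.812), with overlap, and 12.5, 8.82 and 10.5 CPM with TRAM2-KO1 (difference 0.93, SE 0.105, adjusted p = 0.0017). Here the TRAM2-KO1 libraries lay below both other groups. KLK5, a kallikrein protease of the epidermis, had 1.1, 1.64 and 1.48 CPM in controls and 2.61, 2.37 and 2.22 CPM with TRAM2-KO2, and 0.847, 0.97 and 0.973 CPM with TRAM2-KO1 (difference 1.37, SE 0.189, adjusted p = 0.0052). Its rise against control was lost without any 1 of the 6 libraries (edgeR adjusted p 0.0656 to 0.148). In the other direction VIM was lower with TRAM2-KO2 by 0.32 (adjusted p = 0.000497) and PLAT by 0.31 (0.00167). For the collagen IV chains COL4A1 and COL4A2 the difference between the guides was 0.13 (adjusted p = 0.0654) and 0.21 (0.176), neither past the test. Of the genes drawn in the plot of both guides KLK5, ST14, DCN and EIF2S2P4 passed every alternative of this contrast that gave a value. FKBP2, CRB3, SGPP2, PKD1P5, EPPK1, SYT8 and LYPD6B were each lost in 5 to 7 alternatives, among them leaving out single libraries (highest adjusted p 0.106 to 0.269). All guide comparisons share the same 3 controls, so the values against control are given side by side and not as independent results.

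**Figure D5:**
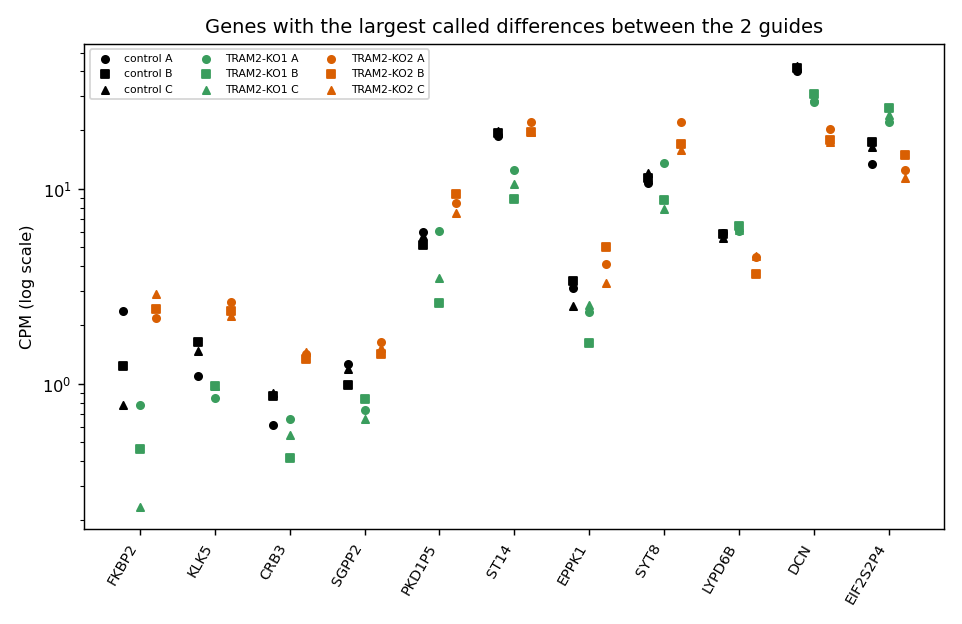
CPM on a log axis in all 9 libraries for 11 of the genes with the largest called differences between the guides among those whose libraries do not overlap. TRAM2-KO2 (orange) lies above TRAM2-KO1 (green) for FKBP2, KLK5, CRB3, SGPP2, PKD1P5, ST14, EPPK1 and SYT8 and below it for LYPD6B, DCN and EIF2S2P4; PKD1P5 and EIF2S2P4 are pseudogenes whose reads may belong to other copies.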

How the data were processed

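Libraries were made from poly(A)+ RNA with a strand-specific TruSeq kit. The authors trimmed reads with cutadapt and quantified transcripts with Salmon (versions and index not given in the sources used here). The deposited files hold estimated counts and TPM for 226030 transcripts of each library. The study's own design text names other conditions, so groups were taken from the sample labels.

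Estimated counts were added up per gene (97.5% of transcripts matched GENCODE v44 lifted to GRCh37) and rounded. Genes were kept by filterByExpr (minimum 10 reads), and all 9 libraries (21.7 to 27.6 M reads) entered 1 edgeR 4.0.16 quasi-likelihood fit with TMM factors (R 4.3.3, limma 3.58.1). Adjusted p-values are Benjamini-Hochberg values over 15139 genes, and SE and 95% intervals come from that fit. CPM use TMM-adjusted library sizes, and log2 values for comparisons between libraries a prior count of 2. TPM are given where levels of different genes are set side by side; limits and classes in CPM sort genes by read depth, not by level per length. Alternatives were RLE factors, DESeq2 1.42.0, other filters, the 6 compared libraries only, a block for the library letter, transcript length offsets, GC trend removal, and leaving out each library. The code was tested on simulated data.

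Genes were named by a fixed rule: the 20 most positive and 20 most negative called genes without overlap and with at least 1 CPM, the 4 genes of smallest p and the most abundant of each list, the 8 largest called differences between the guides in each direction, genes within 500 kb of TRAM2, and the study's own genes. EDIL3, ALDH1A3, RAB25, MAL2, MPZL2, ABCA12, HSPA5, CALR, PDIA3, NID2, SEC61A1, XBP1, DDIT3, CDH1, CCN2, ANKRD1, FLRT3 and PROM2 fall outside the rule and were chosen after their values were seen. Members and lists were chosen with earlier results of these data known. The guide was matched to GRCh37 on both strands. Protein sequences were not used here. Some genes that the rule names are not reported here.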

Additional observations from a re-analysis of the deposited data

Results flagged for a closer look

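In 3 genes the guides gave opposite signs, each past the adjusted p against control, with a test of the difference itself. COL17A1, the transmembrane collagen of the hemidesmosome, stood at 215, 214 and 209 CPM in controls, 248, 253 and 243 CPM with TRAM2-KO2 and 189, 175 and 182 CPM with TRAM2-KO1, so that the guides lay on either side of the controls. The difference between the guides was 0.45 on the log2 scale (SE 0.0331, edgeR adjusted p = 0.000229), and it was lost with transcript length offsets (adjusted p = 0.0942). The rise of COL17A1 against control (adjusted p = 0.00316) was lost with the same offsets. FLRT3, an adhesion protein of the cell surface, stood at 63.2, 65.1 and 63.1, 72.8, 72 and 72.1 and 50.7, 56.4 and 53.8 CPM in the same order of groups (difference 0.43, adjusted p = 0.000663). PROM2, a protein of membrane protrusions, stood at 61.2, 63.1 and 59.7, 75.3, 67.6 and 70.6 and 51.6, 46.1 and 49.3 CPM (difference 0.54, adjusted p = 0.000724). The last 2 differences passed all 14 alternatives. Against control, TRAM2-KO2 put FLRT3 and PROM2 close to the limit (edgeR adjusted p = 0.0333 and 0.0433). How these 2 rises hold in the alternatives is not given here. Both comparisons use the same 3 controls, and the cause of the opposite signs was not tested.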

How the results depend on the processing

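The log2 fold change of TRAM2 stayed between -1.17 and -1.14 and past the test in each alternative. The 98 called genes (52 up, 46 down) became 58 (30 up, 28 down) with a mean of at least 5 CPM, where fewer genes are tested, and 57 (31 up, 26 down) with transcript length offsets, of which 57 and 42 were among the 98. The counts were 101 with RLE factors, 72 in DESeq2, 132 with no filter, 117 with the 6 libraries only and 121 with the GC trend removed. Leaving out 1 library gave 69 to 79 called genes, 34 to 46 up and 32 to 40 down, the fewest up without control A. The 72 genes called between the guides became 162 with no filter and 26 with transcript length offsets, and 41 to 315 when 1 library was left out, with 41 without TRAM2-KO2 A or B and 315 without TRAM2-KO1 A. With transcript length offsets LAMA4 (log2 fold change -0.014) and GRHL2 (-0.039) reversed, and of 188 named genes past the test 106 were lost. Leaving out 1 library lost 48 to 61 of them. The cause of these losses was not tested. No pairing by library letter was seen: deviations of control and TRAM2-KO2 libraries with the same letter correlated at -0.024, -0.029 and -0.041. The labels do not say what the letters stand for, and with 3 libraries a group these values cannot settle it. A replicate block gave 84 called genes (43 up, 41 down), and 107 together with GC trend removal, and 60 and 56 between the guides. With 3 libraries a group and a median SE of 0.267 for genes under 5 CPM, small changes of scarce genes were not detectable at this depth.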
